A study of Rattus norvegicus with 16 samples.

Results

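The transcripts described here are those of 4 genes of the neuromuscular junction, the synapse between motor nerve and muscle fibre. They are Musk, Utrn, Nes and Nrg1, taken by gene symbol from the annotation of the array. Each had a single probe, RA0774 for Musk, RA0401 for Utrn, RA0627 for Nes and RA0688 for Nrg1, among 1176 probes tested. RNA came from the EDL (extensor digitorum longus, a mostly fast muscle that extends the toes) of 6-month-old Brown-Norway rats. There were 8 arrays from EDL denervated for 2 months and 8 from control EDL. Rats were numbered 1 to 8 in each group. Whether rats of the same number are the same animal, how denervation was done and whether regrowth of the nerve was prevented are not stated in the labels. Each array was taken as 1 rat, and if samples shared an animal, the p-values would measure the spread between these samples only.

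Musk is the muscle-specific receptor tyrosine kinase through which agrin from the nerve terminal organises the postsynaptic membrane. Utrn encodes utrophin, a relative of dystrophin that links the actin cytoskeleton to the membrane and is concentrated at the crest of the junctional folds. Nes encodes nestin, an intermediate filament protein of developing muscle that in adult fibres is kept at the junction, and which satellite, Schwann and endothelial cells also make. Nrg1 encodes neuregulin 1, a growth factor of motor axons, Schwann cells and muscle that signals through ErbB receptors. In innervated fibres Musk and Utrn are transcribed mainly by the nuclei beneath the synapse, and electrical activity is known to hold down Musk transcription elsewhere along the fibre.

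The upstream sequences are shown because 2 short motifs are known from the control of synaptic genes, the E-box (CANNTG), through which myogenic factors act, and the N-box (CCGGAA), which restricts transcription to nuclei beneath the synapse. A RefSeq promoter was found for 3 of the 4 genes. Each line gives the 250 bases before the annotated start in assembly GRCr8, read 5′ to 3′ on the gene's strand. The windows are chr5:77853486-77853735 (+) for Musk, chr1:9044488-9044737 (-) for Utrn and chr2:175736338-175736587 (+) for Nes. Capitals mark matches to either motif on either strand.
Musk: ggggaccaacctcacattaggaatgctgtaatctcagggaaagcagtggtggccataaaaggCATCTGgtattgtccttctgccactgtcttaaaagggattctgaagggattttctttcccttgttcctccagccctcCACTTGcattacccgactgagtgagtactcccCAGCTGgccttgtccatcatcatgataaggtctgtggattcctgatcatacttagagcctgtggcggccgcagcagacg
Utrn: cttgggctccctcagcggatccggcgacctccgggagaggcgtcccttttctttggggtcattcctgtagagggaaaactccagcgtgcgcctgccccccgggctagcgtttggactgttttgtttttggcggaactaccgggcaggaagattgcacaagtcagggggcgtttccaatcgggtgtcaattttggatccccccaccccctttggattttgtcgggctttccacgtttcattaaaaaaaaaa
Nes: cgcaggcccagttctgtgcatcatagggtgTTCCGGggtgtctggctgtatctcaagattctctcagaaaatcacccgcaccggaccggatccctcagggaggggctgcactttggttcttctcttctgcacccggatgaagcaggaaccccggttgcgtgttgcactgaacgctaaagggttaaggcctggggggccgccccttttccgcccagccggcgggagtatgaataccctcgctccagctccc
The Musk window held 3 E-boxes, which were CATCTG at 188 to 183 bases, CACTTG at 111 to 106 bases and CAGCTG at 79 to 74 bases before the start. The Utrn window held neither motif, and the Nes window held 1 N-box, TTCCGG on the printed strand, at 220 to 215 bases before the start. Of 33469 rat promoter windows of the same length, 65.5% held an E-box, 12% the palindrome CAGCTG, which is itself an E-box, and 12.6% an N-box. These matches describe the letters only, and no binding was measured. Only 1 annotated start was read for each gene, so motifs at other starts or farther upstream were not looked for.

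Values are log units of unstated base, so differences are given in log units and no fold change is given. The mean over all probes was 6.63 on the array of control rat 6 and 8.19 to 8.31 on the other 15 arrays. Each result on the 4 genes is therefore also given after the median of each array was subtracted, called the centred value. The median difference over all probes was 0.22 as deposited and 0.01 after centring. Of 22 muscle genes listed as a check of the tissue, 6 were measured, and 1 fell, the myosin light chain kinase Mylk2, which differed by -1.87 (limma adjusted p = 0.000418), where 0.85% of all probes fell. Their summed value was 59.52 to 66.13 in denervated and 54.42 to 71.93 in control EDL. Their mean centred value was above the array median on every array, at 1.38 to 3.05 in denervated and 1.66 to 3.89 in control EDL. Muscle tissue was used, so fewer cells of a type and less RNA per cell cannot be told apart.

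After 2 months of denervation none of the 4 organiser transcripts passed the test. Musk differed most, by 0.73 log units, followed by Utrn at 0.57, Nes at 0.38 and Nrg1 at 0.18. In limma 0 of 4 passed at an adjusted p under 0.05, where 6.29% of all tested probes passed. At an unadjusted p under 0.05 limma passed 0 of 4, against 17.9% of all probes. By exact permutation 0 of 4 passed after adjustment, against 5.7% of all probes, and 1, Musk, before it, against 17.6%. After centring 0 of 4 passed in limma, against 4.25% of all probes, and 0 of 4 at an unadjusted p, against 17.8%. Exact permutation of centred values then passed 0 of 4 after adjustment, against 3.74% of all probes, and again Musk before it, against 17%. Values of denervated and control arrays overlapped for all 4 genes, while they did not overlap for 1.28% of probes as deposited and 1.53% after centring.

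**Figure D1:**
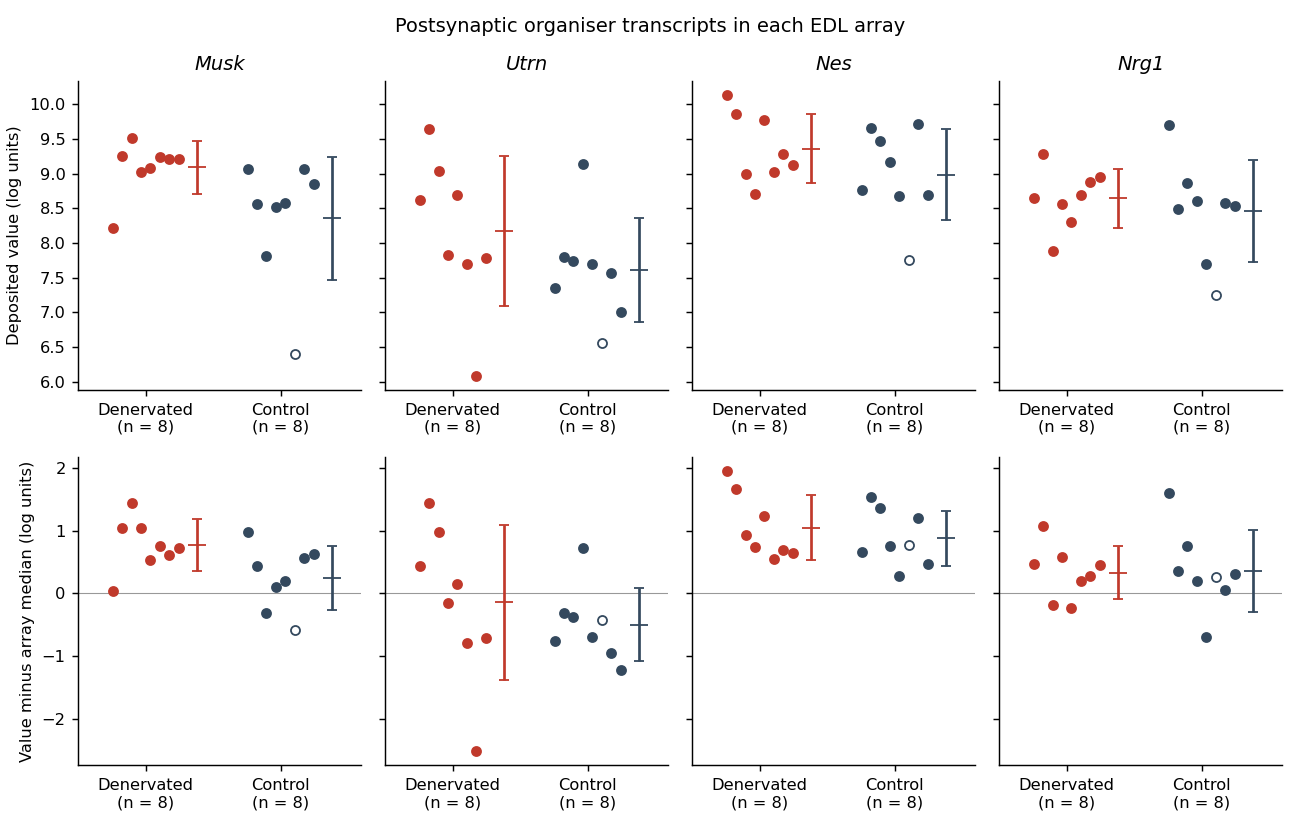
Each point is 1 array, placed within its group by rat number, with the mean and SD (n = 8) at its right; the upper row shows deposited values and the lower row values minus the array median, both in log units. The open circle is control rat 6, which is lowest of its group for Musk at 6.39 as deposited, and the groups overlap in every panel.

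The Musk probe read 8.22, 9.21 and 9.51 log units as the lowest, median and highest value in denervated EDL, against 6.39, 8.57 and 9.07 in control EDL. Apart from rat 1 the denervated arrays lay close together from 9.02 upward, and 6 of 8 exceeded the highest control array, or 3 of 8 after centring. Denervated rat 1 was below the control median. The mean was 9.09 ± 0.38 in denervated and 8.36 ± 0.89 in control EDL (SD, n = 8 each). The difference was 0.73 (SE 0.39, 95% interval -0.04 to 1.51, limma adjusted p = 0.31). Without control rat 6 it was 0.45, and the control SD was then 0.43. After centring the difference was 0.52 (95% interval -0.10 to 1.15, limma adjusted p = 0.392), with 7 of 8 denervated arrays above the control median. By exact two-sided permutation the unadjusted p was 0.026 as deposited and 0.0409 after centring, and over all probes the adjusted p was 0.187 and 0.26. The intervals of Musk took in 0 and also 1 log unit on each scale.

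Utrn had the widest spread of the 4 genes between denervated rats. Its probe read 6.08, 8.22 and 9.64 log units as the lowest, median and highest value in denervated EDL, against 6.56, 7.63 and 9.13 in control EDL. The denervated arrays ran from below every control array to above every one. The means were 8.17 ± 1.09 in denervated and 7.60 ± 0.75 in control EDL (SD, n = 8 each), a difference of 0.57 (SE 0.47, 95% interval -0.38 to 1.52, limma adjusted p = 0.55). It was 0.86 without denervated rat 7, the lowest array, and 0.36 without denervated rat 2, the highest. After centring it was 0.36 (95% interval -0.56 to 1.27, limma adjusted p = 0.72). Among rats 1 to 4 the centred means were 0.68 in denervated and -0.18 in control EDL, a difference of 0.86. Among rats 5 to 8 they were -0.97 and -0.82, a difference of -0.14, so the sign turned between these sets of rats. The limma adjusted p was 0.531 in the first set and 0.933 in the second, and the difference between the sets was not tested. The denervated arrays of these sets also differed in their lowest values and medians, as given under the processing.

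Nestin values were close to each other in the groups. The Nes probe read 8.71, 9.20 and 10.13 log units as the lowest, median and highest value in denervated EDL, against 7.76, 8.96 and 9.71 in control EDL. The 3 highest denervated arrays, those of rats 1, 2 and 5, lay above all controls, and the other 5 lay among them. The means were 9.36 ± 0.50 in denervated and 8.99 ± 0.65 in control EDL (SD, n = 8 each), a difference of 0.38 (SE 0.36, 95% interval -0.34 to 1.09, limma adjusted p = 0.623). The difference was 0.20 without control rat 6 and 0.17 after centring (95% interval -0.44 to 0.78, limma adjusted p = 0.818). The centred interval left out a difference of 1 log unit in either direction.

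Nrg1 showed the smallest difference, close to the median of all probes on each scale. Its probe read 7.88, 8.67 and 9.28 log units as the lowest, median and highest value in denervated EDL, against 7.24, 8.56 and 9.69 in control EDL. All denervated arrays lay inside the control range, whose highest array was rat 1 and lowest rat 6. The means were 8.65 ± 0.42 in denervated and 8.46 ± 0.74 in control EDL (SD, n = 8 each), a difference of 0.18 (SE 0.39, 95% interval -0.59 to 0.96, limma adjusted p = 0.862). It was 0.36 without control rat 1 and 0.01 without control rat 6. After centring it was -0.03 (95% interval -0.70 to 0.64, limma adjusted p = 0.983), and this interval too left out a difference of 1 log unit either way. Among rats 1 to 4 Nrg1 differed by -0.32, and among rats 5 to 8, which include the low array, by 0.69; after centring these were -0.24 and 0.19. Neuregulin has many isoforms, and which of them the probe reads was not examined.

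**Figure D2:**
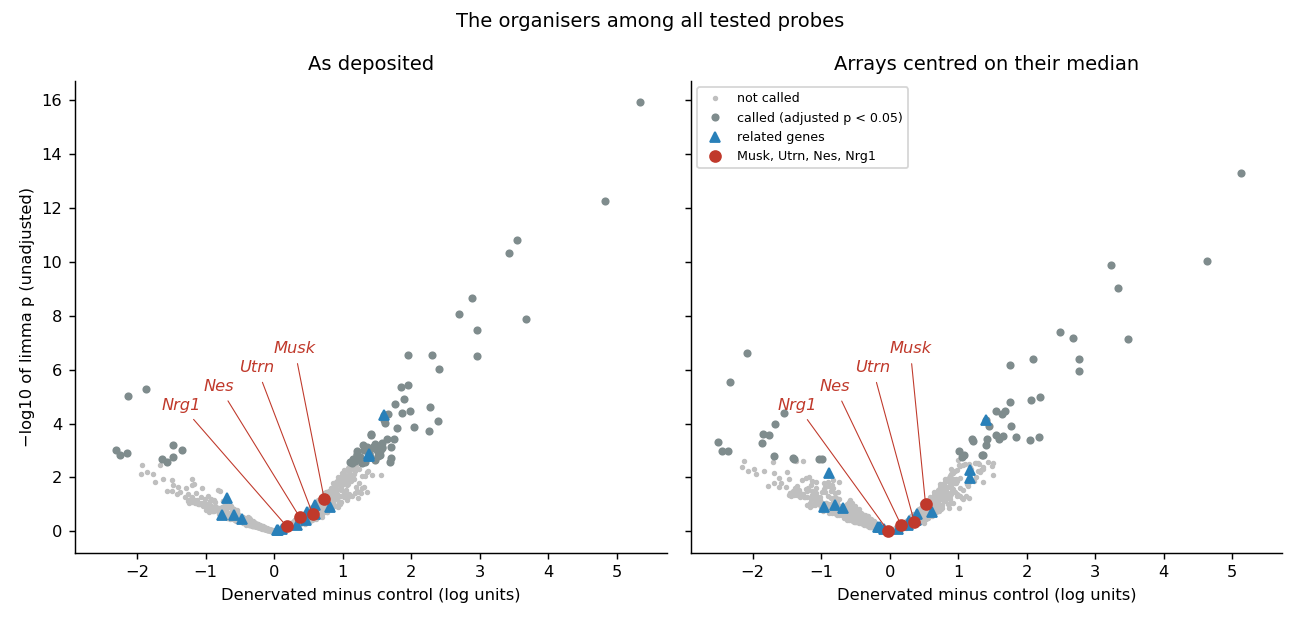
The horizontal axis is the difference of denervated minus control EDL in log units and the vertical axis −log10 of the unadjusted limma p, for 1176 probes as deposited (left) and after centring (right). Musk, Utrn, Nes and Nrg1 lie near the base of the cloud, among probes that were not called, and Nrg1 lies at -0.03 after centring.

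Across all probes, 64 were higher (5.44%) and 10 lower (0.85%) in denervated EDL as deposited, 35 (2.98%) and 15 (1.28%) after centring, and 35 and 27 after quantile normalisation. The total of 74 became 43 or 46 when denervated rat 1 or 6 was omitted, and 49, 45 or 48 when control rat 5, 7 or 8 was. Ranked by unadjusted p among 1176 probes, Musk stood at 240, Utrn at 506, Nes at 566 and Nrg1 at 871. After centring they stood at 298, 703, 836 and 1121. Musk was thus nearest of the 4 to the called probes on each scale.

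**Figure D3:**
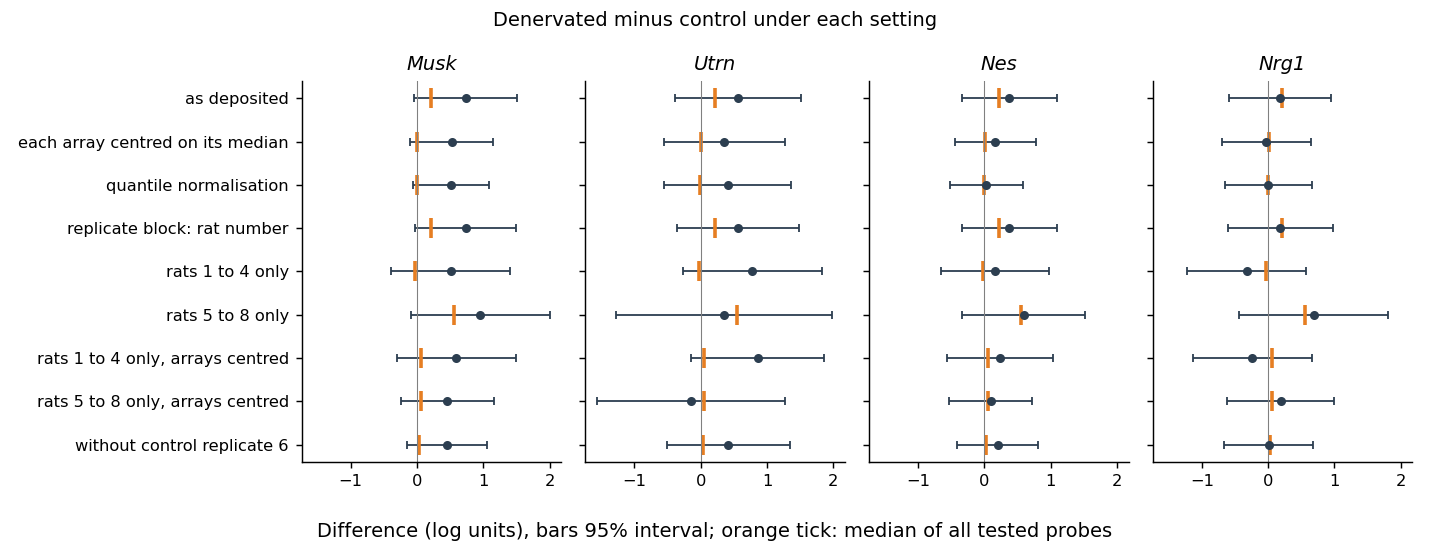
Each panel shows the difference of denervated minus control EDL in log units (point) with its 95% interval (bar) under 9 settings, and the median difference of all probes under that setting (orange tick). Every interval includes 0, Musk lies above the orange tick in each, and Nrg1 changes sign.

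The genes were next set against each other within an array, where a shift of the whole array cancels. The value of Musk minus that of Nrg1 was 0.44 ± 0.60 in denervated and -0.11 ± 0.68 in control EDL (SD, n = 8 each). The change of 0.55 was the largest of the 6 pairs, and did not pass (exact permutation p = 0.11, adjusted p = 0.663 over 6 pairs). Changes in the other 5 pairs lay between 0.17 and 0.38, with exact permutation p from 0.355 to 0.756. No member was thereby shown to differ from another in its response to denervation.

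Variation between rats of the same group was compared over 16 arrays, on centred values with the group means removed. Utrn and Nes gave the highest of the 6 correlations, with Pearson r of 0.489 (permutation p = 0.0776, adjusted p = 0.466) and Spearman rho of 0.674 (permutation p = 0.00742, adjusted p = 0.0445). Without the 2 arrays farthest from the Utrn median r was 0.379. Without control rat 6 rho was 0.668 and no longer passed (permutation p = 0.0102, adjusted p = 0.0611). Within denervated arrays r was 0.633 and within control arrays 0.193. With the means of rats 1 to 4 and of rats 5 to 8 also removed, r was 0.221 (permutation p = 0.424) and rho 0.168. That step was chosen after seeing the data, and the change of r was not tested. The other 5 pairs had r from -0.263 to 0.269 and none passed (permutation adjusted p from 0.668 to 0.877).

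**Figure D4:**
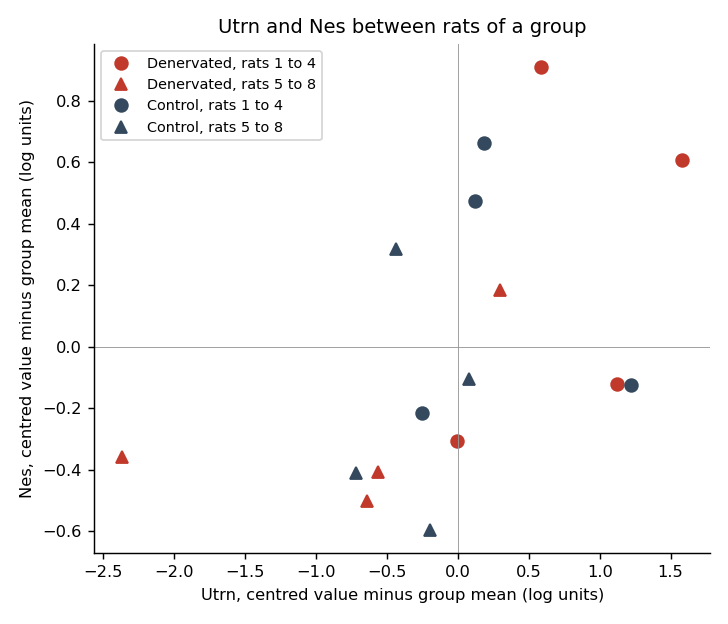
Each point is 1 array, with the centred Utrn value on the horizontal and the centred Nes value on the vertical axis, both minus the group mean in log units; circles are rats 1 to 4 and triangles rats 5 to 8. Circles lie mostly to the right and triangles mostly to the left, with r of 0.489 over 16 arrays and 0.221 within the sets.

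The genes whose centred values followed each member most closely over 16 arrays are given as a description, since each is among the highest of 1105 correlations. Group means were not removed here, so differences between the groups also enter these values. Musk was followed by Man2c1, a cytosolic mannosidase (r = 0.801, rho = 0.862), C4bpb, a complement regulator (r = 0.704, rho = 0.6), and Scgb2a1, a secretoglobin (r = 0.698, rho = 0.644). Without control rat 6 these r values were 0.731, 0.519 and 0.507. Man2c1 was at the lowest value of its array on 5 of 16 arrays. Utrn was followed by Sema6b, a semaphorin (r = 0.717, rho = 0.809), and Rab3ip, a Rab exchange factor (r = 0.694, rho = 0.606). Nes was followed by Arl3, a small GTPase (r = 0.782, rho = 0.691), Capn9, a calpain (r = 0.768, rho = 0.682), and Nlgn3, a synaptic adhesion protein (r = 0.753, rho = 0.521). Nrg1 was followed by Tnp2, a chromatin protein of spermatids (r = 0.803, rho = 0.776), Wfdc1, a protease inhibitor-like protein (r = 0.776, rho = 0.768), and Emd, the nuclear envelope protein emerin (r = 0.767, rho = 0.794). For Utrn, Nes and Nrg1 these r values lay between 0.694 and 0.827 without control rat 6.

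Other genes of the postsynaptic apparatus and the dystrophin complex did not pass either. Of 45 listed, 5 were measured, and 0 passed in limma, after adjustment or before it, and 0 by exact permutation after adjustment, where 6.29%, 17.9% and 5.7% of all probes did. Their median difference was 0.47, and 0.26 after centring, where that of all probes was 0.22 and 0.01. Dmd, which encodes dystrophin, the larger relative of utrophin along the whole fibre membrane, averaged 7.87 ± 0.64 in denervated and 7.05 ± 1.38 in control EDL (SD, n = 8 each), a difference of 0.82 (95% interval -0.24 to 1.88, limma adjusted p = 0.416). It was 0.61 after centring, and without 1 array it ranged from 0.51 (control rat 6) to 1.10 (control rat 8). Lamb2, the laminin chain of the synaptic basal lamina, differed by 0.49 (limma adjusted p = 0.494) and by 0.28 after centring. Without 1 array the Lamb2 difference ranged from 0.27 (control rat 6) to 0.63 (control rat 2). Itga7, the laminin-binding integrin chain of muscle, differed by -0.59 (limma adjusted p = 0.559) and by -0.80 after centring. Without 1 array the Itga7 difference ranged from -0.80 (control rat 4) to -0.34 (denervated rat 5). Colq, the collagen tail that anchors acetylcholinesterase, and Cav3, muscle caveolin, were within -0.32 to 0.72 whichever array was left out. None of 36 listed genes of neuregulin and ErbB signalling was measured, so the receptors of Nrg1 were not analysed here.

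Of 18 listed intermediate filament genes, the class to which nestin belongs, 6 were measured and 1 rose, where 5.44% of all probes rose. It was the neurofilament Nefm, by 1.38 (SE 0.42, limma adjusted p = 0.0318). Nefm averaged 9.51 ± 1.11 in denervated and 8.13 ± 0.69 in control EDL (SD, n = 8 each), and passed neither after centring (adjusted p = 0.126) nor by exact permutation (0.125 after adjustment). The difference was 2.61 among rats 1 to 4 but 0.14 among rats 5 to 8, and its call was lost when denervated rat 1 was omitted (adjusted p = 0.121). The neurofilament Nefh differed by -0.47 (limma adjusted p = 0.685) and by -0.67 after centring. Without 1 array the Nefh difference ranged from -0.82 (control rat 6) to -0.30 (denervated rat 2). The astroglial filament Gfap was at the lowest value of its array on 5 denervated and 7 control arrays, so no difference is given for it. The median of the 6 genes was 0.09, and -0.12 after centring.

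Actin-binding and spectrin-family genes, the wider class of utrophin's cytoskeletal partners, held the clearest change among the related genes. Of 30 listed, 5 were measured and 2 rose, where 5.44% of all probes rose, with a list median of 0.60 as deposited and 0.39 after centring. Msn, which encodes moesin, a linker of actin to the membrane, read 9.13, 9.59 and 10.36 log units as the lowest, median and highest value in denervated EDL, against 7.48, 7.83 and 8.96 in control EDL. Its groups did not overlap. It rose by 1.61 (SE 0.36, limma adjusted p = 0.00255), and by 1.40 after centring (adjusted p = 0.00397), and passed whichever array was left out (adjusted p up to 0.0132). Tmsb4x, the actin-sequestering thymosin beta-4, rose by 1.38 (SE 0.41, limma adjusted p = 0.03). It passed neither after centring (limma adjusted p = 0.0793) nor by exact permutation (0.0609 after adjustment). The difference was 0.70 among rats 1 to 4 and 2.07 among rats 5 to 8. Its call was lost when denervated rat 4 was omitted (limma adjusted p = 0.0826). Actn4, a non-muscle alpha-actinin, differed by -0.68 (limma adjusted p = 0.295) and by -0.89 after centring (adjusted p = 0.0935), and passed as lower after quantile normalisation, at -1.49 (adjusted p = 4.06e-05). Over these lists together 3 of 16 genes passed, where 6.29% of all probes did, and 1, Msn, without denervated rat 1 or 4 or without control rat 5 or 6.

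**Figure D5:**
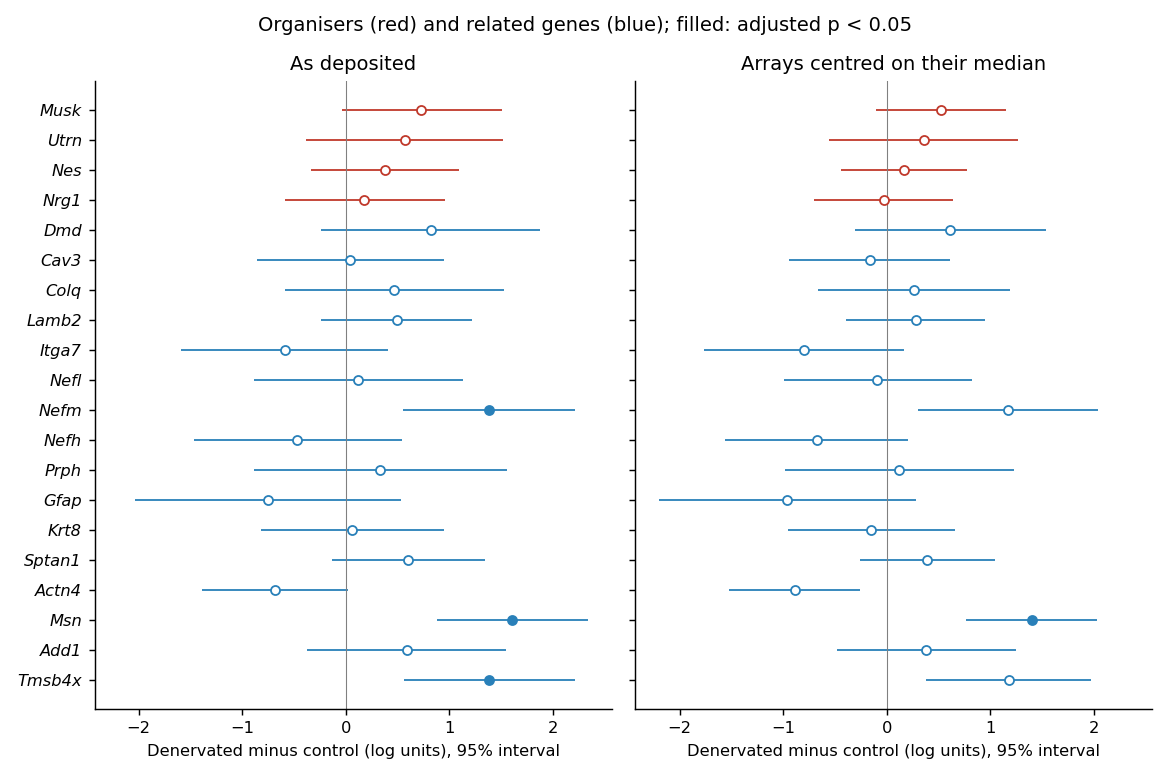
Points are differences of denervated minus control EDL in log units with 95% intervals, for the 4 organisers (red) and 16 related genes (blue), as deposited (left) and after centring (right); filled points have a limma adjusted p under 0.05. Msn is the only gene filled in both panels, and Nefm and Tmsb4x are filled only as deposited.

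Markers listed for several cell types are given beside these transcripts, and their part in the results was not tested. As deposited 5.44% of all probes rose, and after centring 2.98%. Sums are of deposited values, so they carry the low control array, while centred means do not. Of 20 Schwann cell and nerve markers 9 were measured and 1, Nefm, rose. Their summed value was 60.61 to 72.69 in denervated and 49.46 to 71.08 in control EDL. Their mean centred value was -1.75 to 0.03 in denervated and -1.49 to -0.42 in control EDL. Of 14 satellite cell and myogenic markers 6 were measured and 4 rose, Myf6, Myod1, Myog and Ncam1, while Sdc4 and Dll1 did not pass. Which cells of the muscle made these markers was not measured. The sums of the 6 markers were 56.70 to 62.11 in denervated and 45.84 to 54.89 in control EDL, which did not overlap. Their mean centred values did overlap, at 0.85 to 2.22 and -0.38 to 1.03. Of 16 fibroblast and matrix markers 4 were measured and 3 rose, with sums of 44.70 to 49.31 in denervated and 32.15 to 43.06 in control EDL, again without overlap, while the mean centred values overlapped, at 2.58 to 4.35 and 0.98 to 2.64. Of 15 endothelial and smooth muscle markers 2 were measured and 0 passed in limma, before or after adjustment or by exact permutation. Their sums were 13.35 to 19.45 in denervated and 10.90 to 19.30 in control EDL, and their mean centred values -1.86 to 1.55 and -1.54 to 1.55. Of 19 macrophage and leukocyte markers 5 were measured and 0 passed in limma after adjustment. At an unadjusted limma p 3 passed, C1qb and Cd48 as higher and Cxcl1 as lower, where 17.9% of all probes passed. By exact permutation after adjustment 1 passed, Cxcl1, where 5.7% of all probes did. Cxcl1 differed by -1.92 and was at the lowest value of its array on 7 denervated and 4 control arrays. The sums of the 5 markers were 36.42 to 43.87 in denervated and 34.97 to 42.82 in control EDL. Their mean centred values were -1.32 to 0.80 and -0.95 to 0.44. After centring 0 of the Schwann cell and nerve, 3 of the satellite cell and myogenic and 2 of the fibroblast and matrix markers passed as higher. Gfap was the only Schwann cell and nerve marker at the lowest value of its array on most arrays of either group.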

How the data were processed

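Labelled cDNA was hybridised to nylon membrane arrays, scanned with a phosphorimager, quantified with Array Vision and normalised by linear regression, per the labels. The authors deposited a score whose spread is that of log-transformed data; of its log base and background correction nothing is stated in the labels or the table, nor of the origin of the lowest value of each array, which recurs on 22 to 206 probes. Linear regression leaves arrays on a common scale only as far as the fit holds, and 1 control array stayed low. Denervated rats 5 to 8 had lowest values of 2.51 to 4.08, on 22 to 61 probes, and medians of 8.48 to 8.60. Denervated rats 1 to 4 had lowest values of 4.99 to 5.93, on 95 to 139 probes, and medians of 7.97 to 8.20. Among controls the lowest value was 3.27 for rat 6 and 5.18 to 6.69 for the others. The part of these array properties in the differences between sets of rats was not tested. The number of arrays limits the precision.

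Of 1185 probes, 9 reference probes were left out, as their values lie on another scale. The annotation gave 1106 of the rest 1 gene, and 1099 of these were renamed through RefSeq gene IDs of assembly GRCr8; where a gene had several probes, that of highest mean entered the lists. The fit of denervated against control EDL used limma 3.58.1 under R 4.3.3 (two-sided; eBayes with trend), with Benjamini-Hochberg adjustment over 1176 probes and 0.05 as threshold. Exact two-sided permutation ran over the 12870 groupings of 8 of 16 arrays, whose smallest p is 0.000155. Correlations were tested with 100000 permutations within groups. Simulated arrays had 8 per group and independent noise for each probe. They had no shift of a whole array and no recurring lowest value, unlike the data. With 200 of 1176 probes shifted up or down there, limma called 25% of those shifted by 1 log unit and 83% of those shifted by 2. Of its 112 calls 3.57% were false. No 2 arrays were copies, as at most 0.085% of values were identical in any of 120 pairs.

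The members and gene lists were chosen with earlier results of these data known. Genes named are the members, the members of each related list that passed or had the 3 lowest adjusted p, and the 3 genes most correlated with each member, of which 1 is not reported here; Colq, Cav3 and the marker genes outside this rule were named after their values were seen. Alternatives were centring, quantile normalisation, inclusion of reference probes, a filter on probes at the lowest value on over 50% of arrays, a common floor, rat number or set of rats as a block, fits within sets, exact permutation and leaving out each array. Chosen after seeing the data were centring combined with the block or the sets, removal of set means from the correlations, and the comparison of members within an array. Figures were drawn with matplotlib 3.10.9.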

Additional observations from a re-analysis of the deposited data

Results flagged for a closer look

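Of the members' values, 3 stood apart from the rest of their group, out of 16 group comparisons (4 genes, 2 groups, 2 scales), where chance flags about 1 in 20. Musk in denervated rat 1 read 8.22 log units, with the next array at 9.02; after centring it read 0.04, with the next at 0.54, and no longer stood apart. Musk in control rat 6 read 6.39, with the next at 7.81, and this is the array whose mean over all probes was low. Utrn in control rat 4 read 0.72 after centring, with the next at -0.32.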

How the results depend on the processing

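Musk and Nes kept their direction and stayed short of the threshold under all 30 alternatives, Utrn under 29 and Nrg1 under 25; no alternative brought a member past it, and the lowest adjusted p was 0.187, for Musk by exact permutation. Nrg1 turned to -0.03 after centring, -0.04 after centring without control rat 6, -0.32 in rats 1 to 4 (-0.24 centred) and -0.03 with rat number as a block on centred arrays. Centring moves all genes alike, as it took the median of all probes from 0.22 to 0.01. Utrn turned to -0.14 in rats 5 to 8 after centring. The cause of the turns between sets was not tested. Without 1 array Musk ranged from 0.45 to 0.86, Utrn from 0.36 to 0.86, Nes from 0.20 to 0.48 and Nrg1 from 0.01 to 0.36. The correlation of Musk and Nes turned to 0.30 as deposited. The count of 74 changed probes became 113 with rat number as a block (141 centred), 131 with sets as a block, 30 in rats 1 to 4 (31 centred), 139 in rats 5 to 8 and 43 after centring without control rat 6, and ranged from 43 to 98 without 1 array. The count of 3 related genes became 1 after centring (also without control rat 6), with a common floor, by exact permutation and in rats 1 to 4, with or without centring, ranged from 1 to 3 without 1 array, and was 4 (3 higher and 1 lower) with rat number as a block on centred arrays. Same-numbered arrays deviated together at r of 0.109 to 0.193 for rats 1 to 7 and 0.0592 for rat 8, and 3 of 8 denervated arrays correlated best with their own number. Since 1 pair lay under 0.1, rat number was used as a block only in an alternative. The check does not settle whether rats of the same number are the same animal. With rat number as a replicate block the differences stayed as they were (adjusted p = 0.256 for Musk). With 8 arrays per group, changes near 1 log unit were mostly missed on simulated data.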
